A study of Mus musculus with 4 samples.

Results

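The genes of the Polycomb complexes were examined for accessible chromatin in mouse embryonic stem cells. The 9 genes were Ezh2, Eed, Suz12, Jarid2, Mtf2, Rnf2, Ring1, Kdm2b and Cbx7. Every ATAC-seq peak overlapping a gene's mm10 span, or the 20 kb on either side of it, was taken. After peaks that overlapped between libraries were merged, 212 of 170898 regions in the genome belonged to these windows. ATAC-seq uses a transposase that cuts open DNA and inserts sequencing adapters, so a peak marks a stretch of accessible chromatin.

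The cells were of the line 2TS22C, a mouse embryonic stem cell line in which, per the labels, endogenous SOX2 was silenced in both groups. In the SOX17FNV group a lentivirus supplied SOX17FNV, an engineered form of the endoderm factor SOX17. In the SOX2 group a lentivirus supplied SOX2, a transcription factor needed for pluripotency. Both groups received DOX and grew in 2i serum/Lif medium, and each group had 2 libraries, labelled as biological replicates and each begun from 900000 cells. The comparison asks how accessibility differs between cells kept by the engineered factor and cells kept by SOX2. Whether the replicates are separate derivations is not stated in the labels, so p-values rest on these libraries alone, whose spread may be technical. The limma test used below draws each region's variance toward a value shared over regions. A p-value thus reflects a region's own spread only in part.

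Polycomb proteins hold developmental genes silent in embryonic stem cells. Polycomb repressive complex 2 (PRC2) methylates histone H3 at lysine 27 through its catalytic subunit EZH2, with EED and SUZ12 as its other core subunits. JARID2 and MTF2 are accessory subunits that help bring PRC2 to its targets. Polycomb repressive complex 1 (PRC1) ubiquitinates histone H2A through RNF2 (RING1B) or its paralogue RING1, and CBX7 lets a canonical form of PRC1 bind the methylated lysine. KDM2B brings a variant form of PRC1 to CpG islands, which are stretches rich in the dinucleotide CG that mark many promoters.

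Promoters of 4 of the genes are shown because they carry the contrast in accessibility described next, from strongly open starts to a weak and an uncalled one. The sequences are RefSeq promoters of the build GRCm38.p6, which shares its chromosome coordinates with mm10, and run 5′ to 3′ on the gene's strand from 250 bases before the start to 50 after it, with each CG dinucleotide in capitals.
Ezh2, chr6:47594981-47595280, minus strand: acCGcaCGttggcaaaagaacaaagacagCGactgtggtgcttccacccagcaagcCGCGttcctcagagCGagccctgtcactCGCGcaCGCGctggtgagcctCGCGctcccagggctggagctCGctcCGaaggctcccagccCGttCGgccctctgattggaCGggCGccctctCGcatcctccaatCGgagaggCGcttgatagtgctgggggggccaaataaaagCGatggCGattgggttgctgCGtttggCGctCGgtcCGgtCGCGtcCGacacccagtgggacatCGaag
Suz12, chr11:79992856-79993155, plus strand: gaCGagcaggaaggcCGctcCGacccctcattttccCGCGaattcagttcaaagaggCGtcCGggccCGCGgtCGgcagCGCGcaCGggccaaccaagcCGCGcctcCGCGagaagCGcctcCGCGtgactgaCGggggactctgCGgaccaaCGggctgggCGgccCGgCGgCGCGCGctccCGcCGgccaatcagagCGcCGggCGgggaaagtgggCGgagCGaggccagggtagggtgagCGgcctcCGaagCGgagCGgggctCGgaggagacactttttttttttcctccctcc
Mtf2 outer start, chr5:108065424-108065723, plus strand: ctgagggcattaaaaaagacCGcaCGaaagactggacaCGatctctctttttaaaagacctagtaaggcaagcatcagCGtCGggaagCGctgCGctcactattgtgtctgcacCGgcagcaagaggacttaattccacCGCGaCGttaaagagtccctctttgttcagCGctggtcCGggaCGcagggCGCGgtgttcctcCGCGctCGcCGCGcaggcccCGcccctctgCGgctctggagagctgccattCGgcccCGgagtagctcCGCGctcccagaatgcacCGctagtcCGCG
Mtf2 internal start, chr5:108077915-108078214, plus strand: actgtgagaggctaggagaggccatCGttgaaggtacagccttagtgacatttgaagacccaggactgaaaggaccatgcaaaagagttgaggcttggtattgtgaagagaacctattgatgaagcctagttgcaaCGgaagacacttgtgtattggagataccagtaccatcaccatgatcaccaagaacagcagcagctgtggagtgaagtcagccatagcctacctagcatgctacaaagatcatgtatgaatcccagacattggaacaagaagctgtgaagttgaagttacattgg
Kdm2b internal start, chr5:122900301-122900600, minus strand: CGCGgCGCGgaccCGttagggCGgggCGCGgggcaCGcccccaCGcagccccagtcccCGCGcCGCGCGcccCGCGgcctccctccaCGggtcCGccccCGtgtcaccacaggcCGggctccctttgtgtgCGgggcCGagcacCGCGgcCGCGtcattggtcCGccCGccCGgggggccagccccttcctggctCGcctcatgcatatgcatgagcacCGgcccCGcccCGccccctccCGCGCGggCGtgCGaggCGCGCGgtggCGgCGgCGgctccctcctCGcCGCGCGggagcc
Kdm2b start at 122988507, chr5:122988458-122988757, minus strand: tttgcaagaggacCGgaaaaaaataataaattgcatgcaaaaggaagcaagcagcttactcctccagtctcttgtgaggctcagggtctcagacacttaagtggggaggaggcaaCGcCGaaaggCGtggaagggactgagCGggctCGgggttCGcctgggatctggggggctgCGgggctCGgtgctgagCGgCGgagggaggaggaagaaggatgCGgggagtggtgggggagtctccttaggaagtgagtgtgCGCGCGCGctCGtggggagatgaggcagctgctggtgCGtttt
Kdm2b outer start, chr5:122989050-122989349, minus strand: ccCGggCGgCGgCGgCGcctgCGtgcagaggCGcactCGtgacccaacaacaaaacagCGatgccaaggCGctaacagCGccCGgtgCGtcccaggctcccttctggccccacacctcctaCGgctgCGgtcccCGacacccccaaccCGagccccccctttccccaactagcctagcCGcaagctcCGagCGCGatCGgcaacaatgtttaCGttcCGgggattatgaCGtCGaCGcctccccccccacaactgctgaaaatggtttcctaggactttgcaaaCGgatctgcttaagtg

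All 9 genes had at least 1 start in the RefSeq promoter table, with 14 promoters in all. The Suz12 promoter held 41 CG dinucleotides, the Ezh2 promoter 31 and the outer Mtf2 promoter 30. The internal Mtf2 promoter held 2, and it was the single promoter of the 14 with a CG count below the median of 7 over 32817 mouse promoters. The internal Kdm2b promoter shown above held 49, at a GC content of 81.7%. A second internal Kdm2b promoter, whose start lies at 122900367, shares most of that sequence and held 47. The Kdm2b promoter at 122988507 held 18 and the outer one 28. The median over the 14 promoters was 30 CG dinucleotides and a GC content of 64.3%, against 52.7% over all promoters. A search on both strands for ATTGTT, the core letters of SOX binding motifs, found 1 of 14 promoters with a match, the outer Kdm2b promoter, against 10.7% of all promoters. The letters GGGCGG of the GC box were found in 10 of 14, against 35.6% of all promoters. The 6 letters of one motif cannot overlap those of the other, and a match is a description of the sequence only.

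Depth is given here through the peak values, because the files hold no read totals. The SOX17FNV libraries had 120341 and 92851 peaks and the SOX2 libraries 123214 and 96500. The lowest background pileup at any summit was 3.91 and 3.27 with SOX17FNV, against 4.17 and 5.02 with SOX2. It is taken here as the genome-wide background of the library. Pileup is the number of reads or fragments that the peak caller stacked at a peak's summit, and it was recovered as a whole number from the deposited values. The sources used here do not state which of them was counted. A pileup divided by the median of its library over the 57783 regions called in all 4 libraries is called the relative pileup below. Of pluripotency genes with a tabulated start, 6 of 6 had a start within 1 kb of a peak in each library. The same held for 2 of 4 fibroblast, 1 of 2 endoderm and 5 of 5 trophectoderm genes, and for 4 and 5 of 5 neural genes with SOX17FNV, against 4 and 5 with SOX2. Over all 17492 protein-coding genes with a tabulated start, it held for 12026 and 11589 with SOX17FNV, against 12097 and 11670 with SOX2. The starts of Col3a1 and Postn, markers of fibroblasts, and of Afp, a marker of endoderm, were called in none. Since most genes had a called start, these counts describe open starts and neither expression nor cell identity. In bulk libraries, fewer cells with an open region and less opening per cell cannot be told apart.

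Every one of the 9 genes had a start within 1 kb of a peak in each of the 4 libraries. This was true of 63.8% of the 17492 protein-coding genes with a tabulated start. Each of the 9 also had a start within 1 kb of a merged region called in all 4 libraries. At none of these start regions did the difference between the groups pass the test, limma on log2 relative pileup with Benjamini-Hochberg adjustment over all 57783 shared regions. The adjusted p at the main start region of the genes lay between 0.856 for Kdm2b and 0.970 for Ring1. The log2 differences there, SOX17FNV minus SOX2, lay between -0.09 at Jarid2 and 0.14 at Kdm2b, and 4 of the 9 were negative and 5 positive. These values take a single region per gene, at Mtf2 and Kdm2b the one with the higher mean relative pileup. The internal Mtf2 start region, at -0.35 (limma adjusted p = 0.528), lay outside this range. The outer Kdm2b start region was not counted in it either, and its pileups are given below.

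**Figure D1:**
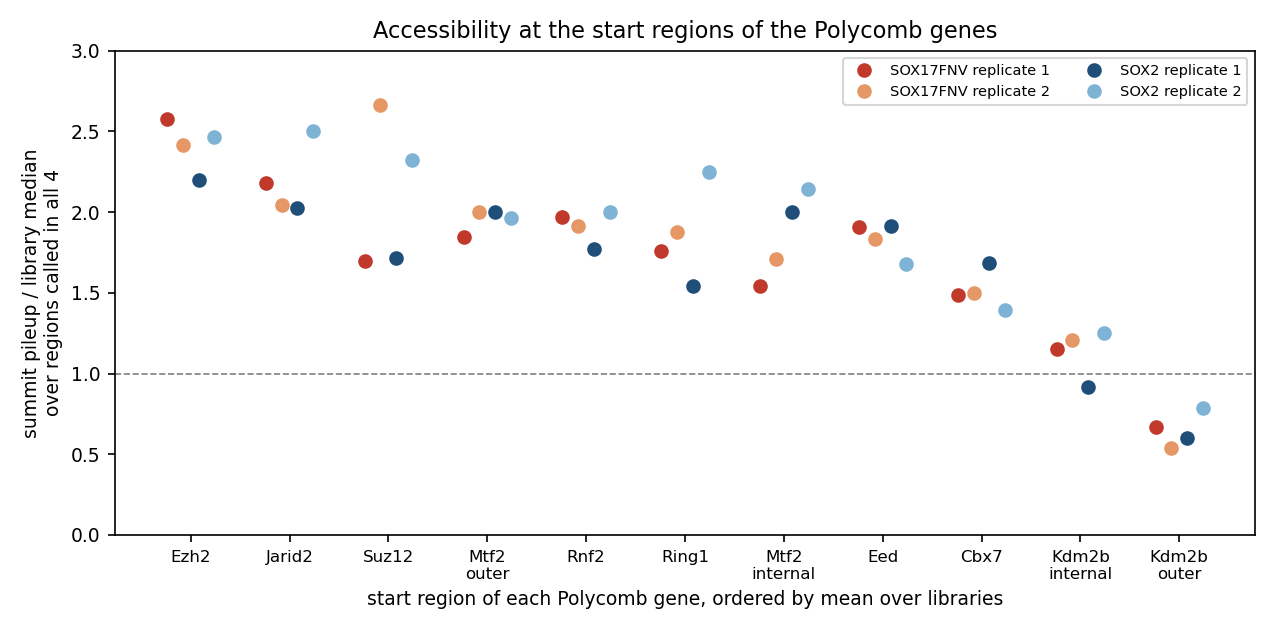
Relative summit pileup (y axis, summit pileup divided by the library's median over regions called in all 4 libraries) at the start regions of the 9 genes, 1 point per library, with SOX17FNV libraries in red and orange and SOX2 libraries in blue. The points of the groups mix at 10 of the 11 start regions, and at the internal Mtf2 start both SOX17FNV libraries lie below both SOX2 libraries.

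Among the PRC2 core genes, the region at the start of Ezh2, the catalytic subunit, lay at chr6:47594034-47595974 and had pileups of 85 and 58 with SOX17FNV, against 77 and 69 with SOX2. By the mean over the libraries it was the most open start region of the 9 genes, with a relative pileup of 2.41 ± 0.158 (SD over the 4 libraries). It did not lead in every library. The Suz12 start was higher in SOX17FNV replicate 2 (2.67, against 2.42 at Ezh2). The Jarid2 start was higher in SOX2 replicate 2 (2.50, against 2.46 at Ezh2). The lncRNA gene F830010H11Rik also starts within 1 kb of the Ezh2 region. The groups overlapped there. The relative pileup was 2.50 ± 0.112 with SOX17FNV and 2.33 ± 0.187 with SOX2 (SD, n = 2 each), and the log2 difference was 0.10 (limma 95% interval -0.35 to 0.55).

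The start of Eed, whose protein binds the methyl mark that PRC2 makes, lay in the region chr7:89980016-89981647, with pileups of 63 and 44 with SOX17FNV, against 67 and 47 with SOX2. The groups overlapped there, at a log2 difference of 0.06. A region inside the gene, chr7:89975519-89976178, was about as strong, with 68 and 49 with SOX17FNV, against 58 and 47 with SOX2. After scaling both SOX17FNV libraries were above both SOX2 libraries there (log2 difference 0.30, limma adjusted p = 0.604). The strongest region of the Eed window was at chr7:89940642-89941544, at the start of the neighbouring gene Hikeshi, which encodes a nuclear import carrier, with 66 and 71 with SOX17FNV, against 55 and 57 with SOX2, and the groups overlapped after scaling.

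Suz12, which encodes the subunit that holds PRC2 together, had its start region at chr11:79992125-79993348. Pileups there were 56 and 64 with SOX17FNV, against 60 and 65 with SOX2. After scaling, the relative pileups were 1.70 and 2.67 with SOX17FNV and 1.71 and 2.32 with SOX2, so the replicates of a group stood farther apart than the groups did. The region 210 bp farther into the gene, chr11:79993559-79993999, was called in the SOX2 libraries alone, with pileups of 28 and 28. Its edge lies 453 bp from the start.

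Of the accessory subunits, Jarid2 had the second most open start region by mean relative pileup, chr13:44730536-44731334. Pileups there were 72 and 49 with SOX17FNV, against 71 and 70 with SOX2. Both of its tabulated starts, 44730774 and 44731271, lie in that region. The strongest region of its window was a further one inside the gene, chr13:44733263-44734405, with 78 and 53 with SOX17FNV, against 73 and 60 with SOX2. Another strong region lay deep in the gene, 138300 bp from the nearest start, with 63 and 38 with SOX17FNV, against 50 and 61 with SOX2. The groups overlapped at the start region and at the deep one, and at the strongest one both SOX17FNV libraries were above both SOX2 libraries by a log2 difference of 0.11 (limma adjusted p = 0.881).

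Mtf2, which encodes a PRC2 subunit that binds CG-rich DNA, has an outer and an internal start. The outer start region, chr5:108065299-108066139, had pileups of 61 and 48 with SOX17FNV, against 70 and 55 with SOX2, and the groups overlapped after scaling (log2 difference -0.04). The internal start lies 27 bp from the region chr5:108076185-108078138, which had pileups of 51 and 41 with SOX17FNV, against 70 and 60 with SOX2. Relative pileup there was 1.63 ± 0.115 with SOX17FNV and 2.07 ± 0.101 with SOX2 (SD, n = 2 each). The groups did not overlap, but the log2 difference of -0.35 (limma 95% interval -0.79 to 0.10) did not pass the test (adjusted p = 0.528). The internal promoter is the CG-poor one printed above, with a region at a mean relative pileup of 1.85 over the 4 libraries, beside 1.95 at the outer start. The strongest region of the window was upstream of the gene, chr5:108052000-108052912, with 58 and 50 with SOX17FNV, against 83 and 52 with SOX2.

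Among the PRC1 genes, the start region of Rnf2, which encodes an H2A ubiquitin ligase of PRC1, lay at chr1:151500090-151501350. Its pileups were 65 and 46 with SOX17FNV, against 62 and 56 with SOX2, and the groups overlapped (log2 difference 0.05). The start region of its paralogue Ring1, chr17:34024263-34025122, had 58 and 45 with SOX17FNV, against 54 and 63 with SOX2. The groups overlapped there too (log2 difference -0.04). The strongest region of the Ring1 window, chr17:34027342-34028380, lies at the start of H2-Ke6, a gene of fatty acid and steroid metabolism. It had 73 and 55 with SOX17FNV, against 64 and 47 with SOX2, and after scaling both SOX17FNV libraries were above both SOX2 libraries (log2 difference 0.36, limma adjusted p = 0.506).

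The start region of Cbx7, chr15:79931544-79933168, had pileups of 49 and 36 with SOX17FNV, against 59 and 39 with SOX2, with overlapping groups (log2 difference -0.04). A stronger region, chr15:79970457-79971806, covers the upper end of the Cbx7 gene span, 37811 bp upstream of the tabulated start, with 75 and 48 with SOX17FNV, against 61 and 60 with SOX2. No start in the promoter table lies there.

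Kdm2b, which encodes the CpG island reader, had the weakest start regions of the 9 genes. The internal start region, chr5:122900035-122901173, had pileups of 38 and 29 with SOX17FNV, against 32 and 35 with SOX2, and the groups overlapped. The outer start lies 193 bp from the region chr5:122989292-122989727, which had 22 and 13 with SOX17FNV, against 21 and 22 with SOX2. Its relative pileup, 0.649 ± 0.105 (SD over the 4 libraries), was below the median shared region. The neighbouring gene A930024E05Rik also starts within 1 kb of that region. The promoter at 122988507 overlapped no called region, and the nearest one, chr5:122987092-122987722 at 785 bp, was called in SOX17FNV replicate 2 with a pileup of 17 and in the SOX2 libraries with 20 and 22.

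In the order of mean relative pileup, Ezh2 (2.41) stood above Jarid2 (2.19) by more than the larger SD of the pair. From Jarid2 through Suz12 (2.10), the outer Mtf2 start (1.95), Rnf2 (1.91), Ring1 (1.86), the internal Mtf2 start (1.85) and Eed (1.83), no neighbours in the order differed by more than the larger SD of the pair. Eed stood above Cbx7 (1.52), Cbx7 above the internal Kdm2b start (1.13) and that start above the outer one by more than their SDs. Relative pileup is the height at a summit and was not divided by a length. Only neighbours in the order were compared. The Suz12 start had an SD of 0.477 and stood above Ezh2 in SOX17FNV replicate 2. The order is a description of summit heights over the 4 libraries.

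Across the windows, 77 of 212 regions (36.3%) were called in all 4 libraries, against 33.8% of all regions. Regions called by both libraries of the SOX17FNV group but by none of the SOX2 group, named SOX17FNV-only below, numbered 4 (1.89%, against 3.06% of all regions). The reverse class, SOX2-only, numbered 14 (6.60%, against 4.09% of all regions). With 2 libraries in each group an exact permutation test over libraries cannot go below p = 0.333, so these counts carry no test. The windows' SOX2-only share was above and their SOX17FNV-only share below that of all regions, but both counts depended on the list threshold and on single libraries. With peaks of -log10 q of at least 5, SOX17FNV-only regions numbered 1 (1.12%, against 3.40% of all regions) and SOX2-only regions 5 (5.62%, against 3.24% of all regions), of 89 regions. With at least 10 there were 2 SOX17FNV-only (4.08%, against 3.31% of all regions) and 0 SOX2-only of 49 (against 2.78% of all regions), so both directions turned. Without SOX17FNV replicate 2, where a region needs SOX17FNV replicate 1 alone, SOX17FNV-only regions numbered 30 and SOX2-only regions 21, 14.6% and 10.2% of the windows' regions against 15.4% and 5.53% of all regions. Without SOX2 replicate 2 SOX17FNV-only regions numbered 6 and SOX2-only regions 32, 3.02% and 16.1% of the windows' regions against 4.64% and 17.9% of all regions, so the SOX2-only share then stood below that of all regions. There were 12 SOX17FNV-only and 26 SOX2-only without SOX17FNV replicate 1, 6.42% and 13.9% against 9.23% and 10.7% of all regions. There were 12 SOX17FNV-only and 34 SOX2-only without SOX2 replicate 1, 5.97% and 16.9% against 9.80% and 12.2% of all regions.

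**Figure D2:**
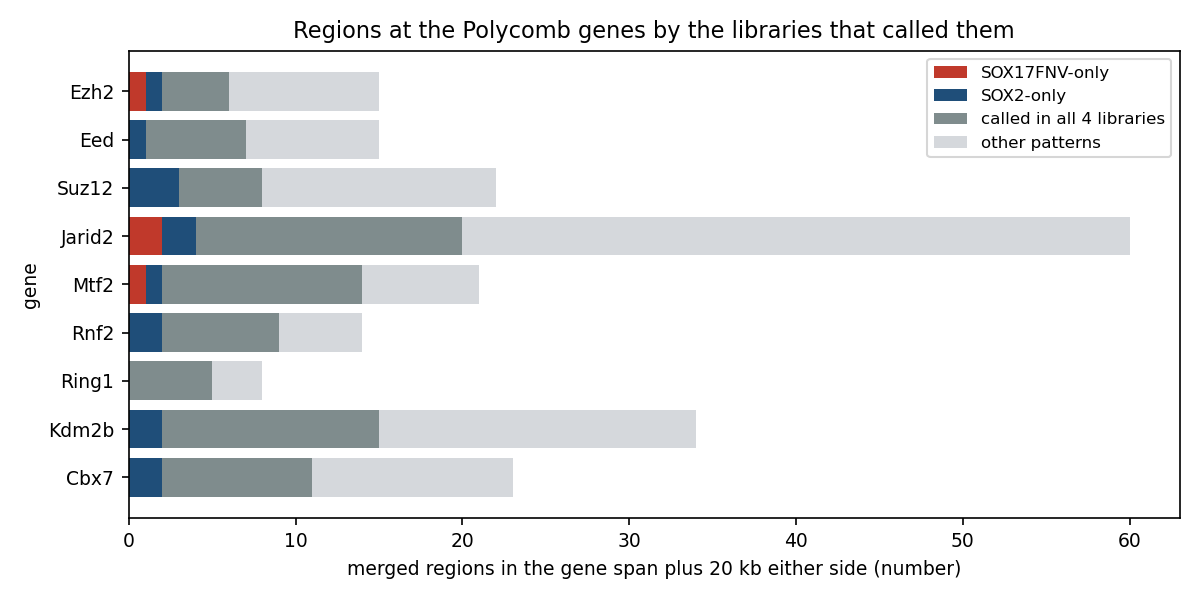
Number of merged regions (x axis) in the window of each gene (y axis), coloured by the libraries that called them. SOX17FNV-only regions occur at Ezh2, Jarid2 and Mtf2, SOX2-only regions at each gene except Ring1, and Jarid2, the longest gene, has the most regions, 60.

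The windows differed in size and content. Jarid2 had 60 regions, 16 of them called in all 4 libraries, Kdm2b 34 with 13, Cbx7 23 with 9, Suz12 22 with 5, Mtf2 21 with 12, Ezh2 15 with 4, Eed 15 with 6, Rnf2 14 with 7 and Ring1 8 with 5. The share called in all libraries was highest at Ring1 (62.5%) and Mtf2 (57.1%) and lowest at Suz12 (22.7%). By position, 131 of the 212 regions lay in the gene, 34 upstream and 47 downstream. Upstream regions were called in all 4 libraries in 16 cases (47.1% of those upstream). In the gene 43 were (32.8%) and downstream 18 (38.3%), against 33.8% of all regions. Of the 4 SOX17FNV-only regions, 3 lay in the gene and 1 downstream, and of the 14 SOX2-only regions, 6 lay in the gene, 4 upstream and 4 downstream.

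The 4 SOX17FNV-only regions were weak to middling within their lists. The Ezh2 region lay in the gene at chr6:47561287-47561767, with pileups of 14 and 14 in the SOX17FNV libraries. Jarid2 had 2, one in the gene at chr13:44790478-44790758 with 16 and 13, and one past its end at chr13:44923821-44924382 with 22 and 20, inside the neighbouring gene Dtnbp1. The Mtf2 region lay in the gene at chr5:108082379-108082627, with 27 and 18. Their percentiles among the peaks of SOX17FNV replicate 1 ran between 17.3 for the Ezh2 region and 62.7 for the Mtf2 region. None of these 4 lay at a start of its gene.

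The SOX2-only regions included 3 at Suz12, a count that other list settings moved. Beside the one next to its start, Suz12 had a SOX2-only region upstream at chr11:79980658-79980931, with pileups of 32 and 23 in the SOX2 libraries, and one past its end at chr11:80034480-80034763, with 21 and 22. The strongest SOX2-only region of all windows lay in Cbx7, chr15:79950440-79951401, with 37 and 31, at the percentiles 77.2 and 74.2 of the SOX2 lists. A peak of SOX17FNV replicate 2, with a pileup of 24, lay right beside it at chr15:79950101-79950340. A second one near Cbx7, chr15:79986671-79987011, had 22 and 19 and lay in Gm52191.

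Upstream of Rnf2, the region chr1:151515778-151516104 had pileups of 32 and 29 in the SOX2 libraries, and it was still SOX2-only when peaks needed a -log10 q of at least 5. The other Rnf2 region, chr1:151456930-151457500, lay in the neighbouring gene Trmt1l with 19 and 16. Kdm2b had one in the gene, chr5:122882710-122883288, with 24 and 24, and one upstream in A930024E05Rik, chr5:122991444-122991813, with 25 and 26. Their percentiles among the peaks of SOX2 replicate 1 were 69.9 and 35.1 for the Rnf2 regions and 52.0 and 54.8 for the Kdm2b regions.

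The Jarid2 SOX2-only regions lay in the gene, chr13:44748088-44748351 with 19 and 17 and chr13:44851469-44852014 with 27 and 19. The Mtf2 one lay downstream, chr5:108114448-108114776, with 28 and 26. The Ezh2 one lay in the gene, chr6:47534193-47534674, with 17 and 14, and the Eed one in Hikeshi, chr7:89939862-89940321, with 27 and 19. Ring1 had no group-only region. Of all 18 group-only regions, 3 (at Eed, Suz12 and Jarid2) lay within 500 bp of a region called in all 4 libraries, 16.7% against 4.02% of the 12222 group-only regions of the genome. A region not called in a library may still hold fragments there, since no peak of a list had a pileup below 11 and 10 with SOX17FNV, against 12 and 13 with SOX2.

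**Figure D3:**
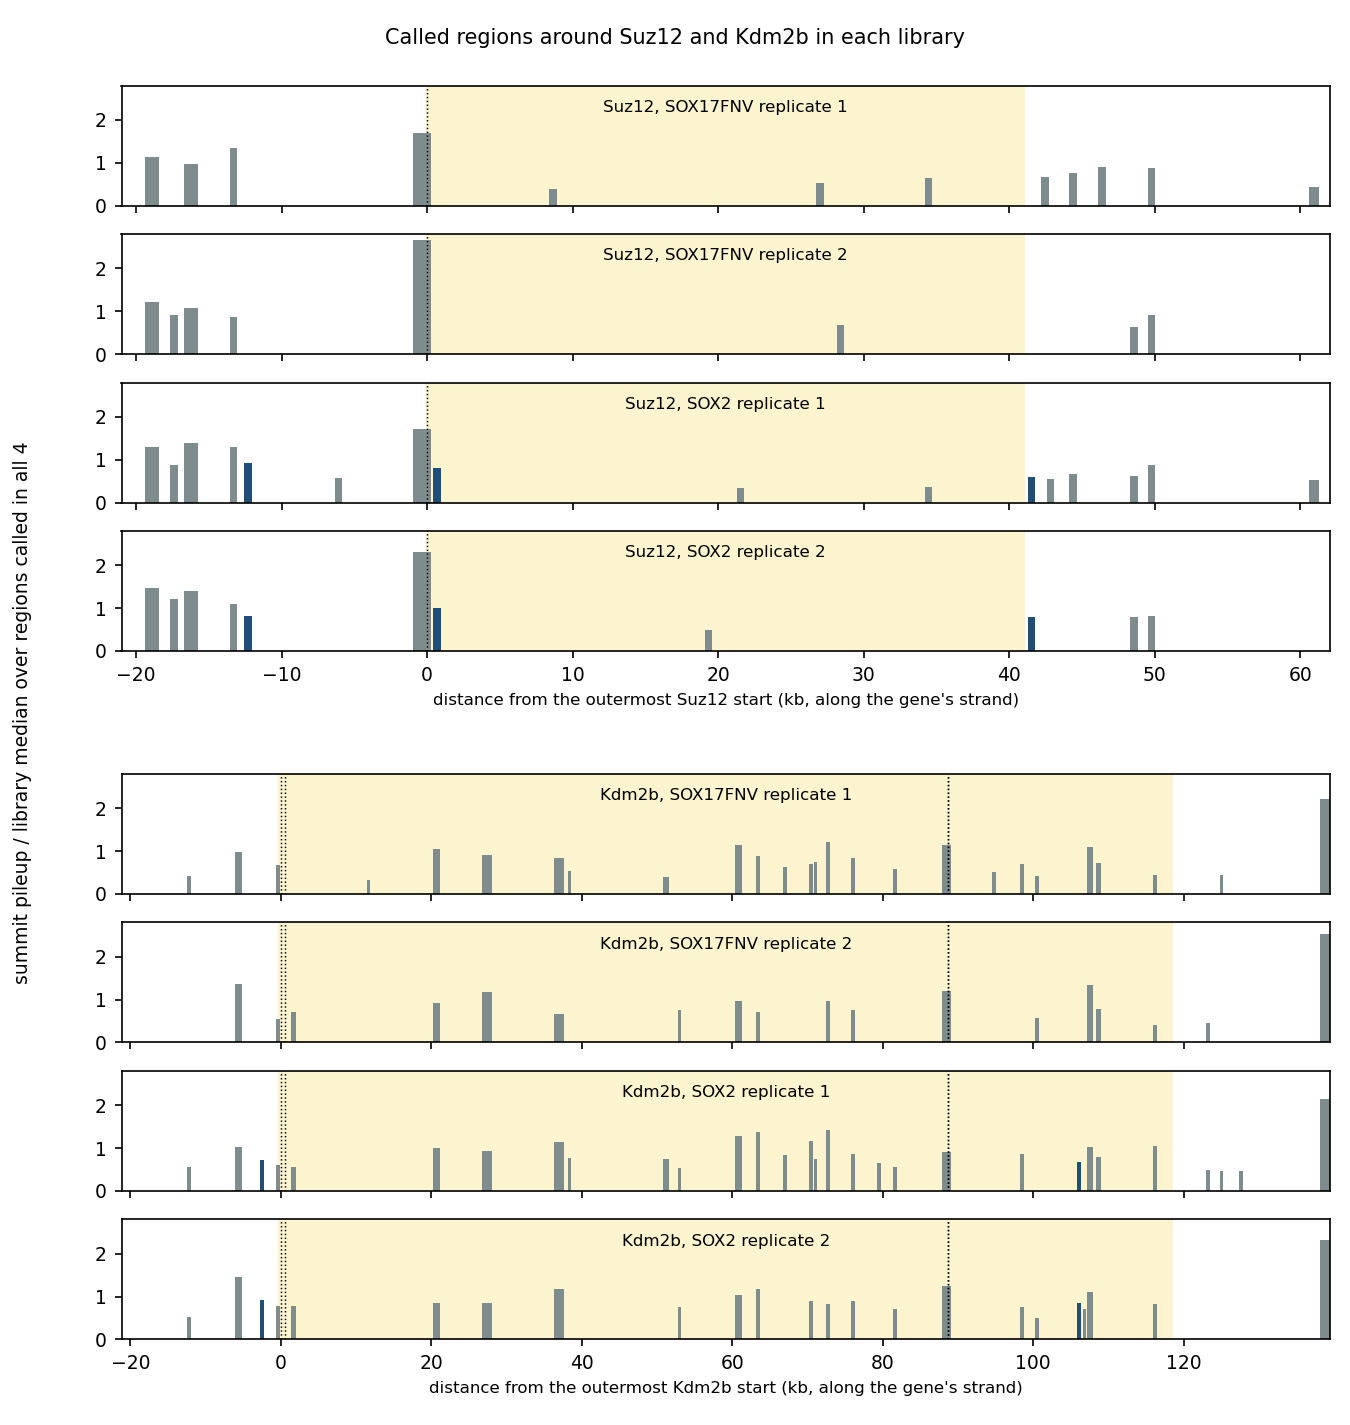
Called regions around Suz12 and Kdm2b in each library, drawn along the gene's strand by distance in kb from the outermost start (x axis), with bars as high as the relative summit pileup (y axis) and at least 0.5 kb wide in the drawing. Yellow marks the gene span, dotted lines the starts and dark blue the SOX2-only regions, of which Suz12 has 3 and Kdm2b 2.

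Among the 77 regions called in all 4 libraries, both SOX17FNV libraries stood above both SOX2 libraries in 18 (23.4%, against 24.1% of all shared regions) and below them in 13 (16.9%, against 18.4%). In the other 46 the groups overlapped. The median log2 difference was 0.00, against 0.04 over all shared regions, and 38 of the 77 differences were negative, 49.4% against 44.8%. These shares lay near those of all shared regions. In the limma fit, 0 of the 77 rose with SOX17FNV (background 0.197% of all shared regions) and 1 fell (background 0.493%) at an adjusted p under 0.05. Over all shared regions 114 were higher and 285 lower with SOX17FNV, and with scaling by background pileup 7 were higher and 0 lower. At an unadjusted p under 0.05 there were 9 of 77 (11.7%), against 12.9% of all shared regions.

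The region that fell lies in Kdm2b at chr5:122872707-122873133, 27217 bp from the nearest start of the gene. Its pileups were 15 and 10 with SOX17FNV, against 37 and 23 with SOX2, so both SOX17FNV values were near the lowest that could be called. Relative pileup was 0.436 ± 0.027 with SOX17FNV and 0.939 ± 0.167 with SOX2 (SD, n = 2 each). The log2 difference was -1.10 (SE 0.22, limma adjusted p = 0.0395). Pileup includes the background, which was not subtracted. The call was lost without SOX2 replicate 1 (limma adjusted p = 0.263), with quantile normalization (0.098) and with scaling by background pileup (0.60). In these settings the log2 difference was -0.97, -1.08 and -0.90, in that order. With peaks of -log10 q of at least 5 the region was no longer called in the SOX17FNV libraries and became SOX2-only. Its mean pileup kept it out of the fit when a mean of at least 30 was required.

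**Figure D4:**
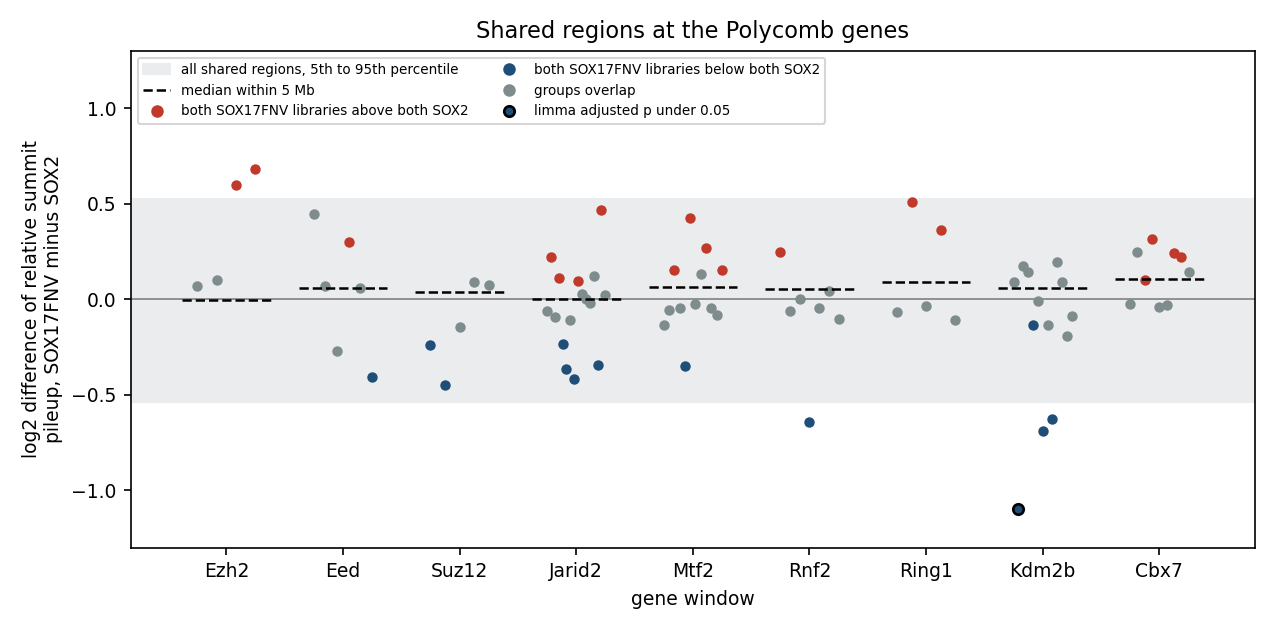
Log2 difference of relative summit pileup, SOX17FNV minus SOX2 (y axis), for each of the 77 shared regions by gene window (x axis), coloured by whether the groups overlap. The grey band holds the 5th to 95th percentile of all shared regions (-0.53 to 0.53), dashed lines are the medians of shared regions within 5 Mb, and the black outline marks the Kdm2b region at -1.10, the one with an adjusted p under 0.05.

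Further Kdm2b regions had negative differences that did not pass the test. The region starting at 122925405 had 29 and 17 with SOX17FNV, against 48 and 33 with SOX2, a log2 difference of -0.69 (limma adjusted p = 0.173). The one starting at 122951424 had 28 and 16 with SOX17FNV, against 40 and 33 with SOX2, a log2 difference of -0.63 (limma adjusted p = 0.213). In all, both SOX17FNV libraries were below both SOX2 libraries at 4 of the 13 shared Kdm2b regions (against 18.4% of all shared regions) and above them at 0 (against 24.1%). The median log2 difference of the window was -0.09, beside 0.06 for the shared regions within 5 Mb of the gene. At Cbx7 SOX17FNV was above at 4 of 9 and below at 0, beside the same shares of all shared regions, with a median of 0.14 beside a local median of 0.11.

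Ezh2 had the highest median log2 difference, 0.35, beside a local median of -0.00, but over 4 shared regions. Upstream of the gene, chr6:47601509-47602456 had pileups of 35 and 28 with SOX17FNV, against 22 and 24 with SOX2 (log2 difference 0.60, limma adjusted p = 0.256). Farther upstream, chr6:47608170-47608822 had 36 and 27 with SOX17FNV, against 36 and 13 with SOX2 (log2 difference 0.68, limma adjusted p = 0.352). Relative pileups there were 1.091 and 1.125 with SOX17FNV, against 1.029 and 0.464 with SOX2, so SOX2 replicate 2 lay far below the other libraries. Suz12 had a median of -0.14 beside a local median of 0.04, and its region starting at 79976431 had 32 and 26 with SOX17FNV, against 49 and 39 with SOX2 (log2 difference -0.45, limma adjusted p = 0.385). In Rnf2 the region chr1:151472461-151473467 had 20 and 16 with SOX17FNV, against 31 and 31 with SOX2 (log2 difference -0.64, limma adjusted p = 0.201). The medians of the other genes were 0.06 at Eed beside a local 0.06, -0.01 at Jarid2 beside 0.00, -0.03 at Mtf2 beside 0.07, -0.05 at Rnf2 beside 0.05 and -0.04 at Ring1 beside 0.09.

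The other Polycomb genes served as the wider setting. A list of 36 further subunits and opposing enzymes had 552 regions. Of these, 205 (37.1%, against 33.8% of all regions) were called in every library. The SOX17FNV-only class held 11 (1.99%, against 3.06% of all regions) and the SOX2-only class 22 (3.99%, near the 4.09% of all regions). A start was called in all 4 libraries for 26 of the 28 genes with a tabulated start, against 63.8% of protein-coding genes. The exceptions were Bcor, whose start was called in 1 library, and Bcorl1, in 2. Bcor encodes a corepressor of the variant PRC1 that also holds KDM2B. It was also the gene with the list's 2 regions that passed the limma test, both lower with SOX17FNV and both in the gene.

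The Bcor region chrX:12047433-12048726 had pileups of 17 and 12 with SOX17FNV, against 39 and 32 with SOX2 (log2 difference -1.15, SE 0.21, limma adjusted p = 0.0284). The region chrX:12152875-12154007 had 21 and 15 with SOX17FNV, against 45 and 41 with SOX2 (log2 difference -1.12, SE 0.21, limma adjusted p = 0.0333). Bcor also had 3 SOX2-only regions, and both SOX17FNV libraries were below both SOX2 libraries at 10 of its 12 shared regions, beside 18.4% of all shared regions. Its median log2 difference was -0.55, and the shared regions within 5 Mb of it had a median of -0.41. With quantile normalization or without SOX2 replicate 1, no shared region of the genome passed, and with scaling by background pileup none that was lower with SOX17FNV did, so both calls were lost in these settings. The part of the surrounding chromosome in the gene's values was not tested.

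The values of some other genes of the list went with those of their surroundings, and those of others did not. Kdm6a, an X-linked demethylase of the mark that PRC2 makes, had 2 SOX2-only regions and a median of -0.58 beside a local median of -0.33. Aebp2, an accessory PRC2 subunit, had 2 SOX17FNV-only and 2 SOX2-only regions, and a median of -0.46 beside a local -0.26. Bap1, the H2A deubiquitinase, had a median of 0.65 beside a local 0.47. The part of these local shifts in the genes' values was not tested. Auts2, which encodes a PRC1 partner, had 4 SOX2-only regions and a median of -0.23 beside a local 0.12, of the opposite sign. Further genes of the list had medians opposite in sign to the local one. Among them were Phc2 (-0.11 beside 0.09), Mga (-0.14 beside 0.02) and E2f6 (-0.16 beside 0.002). The genes with SOX17FNV-only and no SOX2-only regions were Lcor and Cbx6 with 2 each and Epop, Pcgf5 and E2f6 with 1 each. Phc2 had 2 of each kind. Genes with SOX2-only regions alone included Phc1 and Rybp, with 2 each, and Rbbp4, Phf1, Pcgf6 and Mga, with 1 each. No shared region of any of these genes other than Bcor passed the limma test.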

How the data were processed

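The authors deposited 1 peak list per library. Per the submitters' processing notes, Bowtie2, SAMtools and MACS2 were used with the build mm10; for versions, settings and any transposase shift the sources used here give nothing. A deposited line has the summit's fold enrichment over local background (a ratio), the -log10 of its p-value and q-value, and a score made from the q-value, all the authors' own. The lowest -log10 q was 1.30 in every list. Distinct peak intervals on chromosomes 1 to 19, X and Y sharing 1 bp or more were merged. The whole-number pileup of each summit was solved from the deposited fold and -log10 p, to within 0.001, for 100% of summits; the highest summit stood for a region. Log2 relative pileup was fitted with limma 3.58.1 in R 4.3.3, with Benjamini-Hochberg adjustment over 57783 regions and a threshold of 0.05. The steps were tested on simulated data. For limma these had independent noise and no calling threshold, so they do not bear on regions near the lowest callable pileup. Gene spans, starts and promoters came from RefSeq. Regions named are those at starts, the strongest of each window, the group-only ones and those past the limma threshold, and further shared regions were chosen after their values were seen. The members and gene lists were chosen with earlier results of these data known. Alternatives covered list thresholds and lengths, overlap, scaling, filters, the variance prior, a replicate block and leaving out each library. Of the further Polycomb genes, 1 counted in the list's totals is not reported here on its own.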

Additional observations from a re-analysis of the deposited data

How the results depend on the processing

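The counts in the windows followed the threshold of the lists and single libraries. The reported counts were 4 SOX17FNV-only, 14 SOX2-only and 77 in all 4 libraries. With -log10 q of at least 5 they were 1, 5 and 38, and with at least 10 they were 2, 0 and 22. Lists of equal length and a stricter overlap moved none of these counts by over 1.5 times. Leaving out 1 library gave 6 to 30 SOX17FNV-only, 21 to 34 SOX2-only and 78 to 89 regions called in all the remaining libraries. In the limma fit over all shared regions, 399 passed. The number was 0 with quantile normalization (7450 at an unadjusted p under 0.05), 7 with scaling by background pileup (7 higher and 0 lower with SOX17FNV, against 114 and 285 as reported), 623 with a mean pileup of at least 30, 1226 with an intensity trend, and 0 to 1054 without 1 library, with 0 when SOX2 replicate 1 was left out. In the windows 1 passed, and 0 did with quantile normalization, background scaling, a mean pileup of at least 30 or -log10 q of at least 5, and 0 to 1 without 1 library. Background scaling moved the median log2 difference of all shared regions to 0.24, against 0.04 as reported.

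No label says that a replicate number marks a shared batch, and there are only 2 numbers. The names of the deposited lists share a mark between libraries of the same number, whose meaning is not stated, so a pairing is possible. Over shared regions, the difference of replicate 1 and replicate 2 correlated between groups with r = 0.233. With a replicate block, 4248 regions passed in all and 6 in the windows. In Kdm2b 3 passed (limma adjusted p 1.30e-05 for the region starting at 122872707, 0.0161 at 122925405 and 0.0341 at 122951424). Upstream of Ezh2 2 passed (0.0452 at 47601509 and 0.0180 at 47608170), and 1 did in Rnf2 (0.0292). With the block the SE was 0.203 at the main start region of each gene, against 0.206 at Mtf2 to 0.253 at Suz12 as reported. With background scaling it was 0.363 at each. The p-values of these 2 settings thus rest on a variance pooled over regions, and do not measure the spread of a region's own libraries. In the reported fit the variance is pooled in part, so its p-values measure that spread only in part.

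At the main start regions of the 9 genes, where no difference passed the test, the sign turned at Eed (-0.023) and Rnf2 (-0.026) with quantile normalization. With background scaling it turned at Jarid2 (0.11), Mtf2 (0.16), Ring1 (0.16) and Cbx7 (0.16), each below that setting's median of 0.24. Leaving out 1 library turned it at each gene except Mtf2. The values then ran from -0.035 to 0.14 at Ezh2, -0.087 to 0.10 at Eed, -0.24 to 0.40 at Suz12, -0.30 to 0.0037 at Jarid2, -0.094 to 0.080 at Rnf2, -0.36 to 0.18 at Ring1, -0.14 to 0.31 at Kdm2b and -0.23 to 0.047 at Cbx7. The cause was not tested. Depth known from peak values alone limits what an uncalled region can show.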

Other observations

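Several of the strongest regions in the windows lie at starts of neighbouring genes. The region at Rnf34, a ubiquitin ligase gene downstream of Kdm2b, chr5:122849603-122850903, had pileups of 73 and 61 with SOX17FNV, against 75 and 65 with SOX2, about as high as the start of Ezh2, and the groups overlapped (log2 difference 0.09, limma adjusted p = 0.911). The region between Slc39a7, a zinc transporter gene, and Rxrb, a retinoid X receptor gene, upstream of Ring1, had 54 and 47 with SOX17FNV, against 65 and 56 with SOX2, again with overlapping groups (log2 difference -0.11, limma adjusted p = 0.892). These neighbours were chosen after their values were seen.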
